A study of Homo sapiens with 30 samples.

Results

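The 10 genes described here build and use microRNAs (miRNAs): DROSHA and DGCR8, XPO5, DICER1 and TARBP2, the 4 Argonautes AGO1 to AGO4, and TNRC6A. They were taken by symbol from the count table, 10 of its 60107 genes. The choice went by their role and not by a measured value, though earlier results of these data were known. All 10 were tested, and each had reads in all 30 libraries.

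A primary miRNA transcript is cut in the nucleus by the DROSHA and DGCR8 complex, and XPO5 carries the resulting hairpin to the cytoplasm. DICER1, helped by the double-stranded RNA binding protein TARBP2, trims the hairpin to a short duplex, and 1 strand is loaded into an Argonaute. The Argonaute pairs with messenger RNAs through the seed of the miRNA and binds a GW182 protein such as TNRC6A, which recruits the deadenylation and decapping enzymes. In liver cells this machinery processes the abundant hepatic miRNAs, and transfected mimics and inhibitors act through the same Argonaute proteins.

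HepG2, a human liver cancer line that the labels call hepatocellular carcinoma and the study's methods hepatoblastoma, was lipofected with locked nucleic acid oligonucleotides in 5 ways. IC was the inhibitor control, I200c an inhibitor of miR-200c-3p, MC the mimic control, M222 a mimic of miR-222-5p and M512 a mimic of miR-512-3p. Sorafenib, a multikinase inhibitor used against liver cancer, was given at 10 µM from 24 h after transfection, and dimethyl sulfoxide (DMSO) was its vehicle. Exposure lasted 6 h in IC and I200c and 24 h in MC, M222 and M512, so that duration and the kind of oligonucleotide cannot be told apart. Each of the 10 groups, written as IC_DMSO or M512_sorafenib, held 3 biological replicates of this 1 line, all lipofected and none without an oligonucleotide.

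Libraries were of the QuantSeq 3′ type, in which a transcript gives a fragment near its 3′ end, so that read numbers do not grow with transcript length. Total counts ran from 3938764 to 9657063 per library, and 3 counts, the upper limit that a count of 0 allows, stood for 0.311 to 0.762 CPM, where CPM is a count scaled to a library of 1e+06 counts. Intervals and limits of this kind cover counting error only. Genes with a count numbered from 13252 (M222_sorafenib replicate 1, 8279825 counts) to 16812 (IC_DMSO replicate 1, 4933999 counts). In M512_sorafenib they numbered 13656, 13866 and 16582 in replicates 1, 2 and 3. Replicate 1 of that group held the lowest single-library levels of AGO1 and AGO4 and the highest of AGO2. Whether this is linked to the number of genes read was not tested. Of the hepatocyte genes looked at, the most abundant had a median over libraries of 3218 CPM for ALB, 1740 for AFP and 3865 for APOB. The medians were lower for APOA1 (813.2), SERPINA1 (596.7), FGB (187.5), HNF4A (175.7) and TTR (49.88). Of the markers of other cell types, CD3E and COL1A2 had no read in any library, and PTPRC and INS each had reads in 1 library. COL1A1 reached 11.72 CPM at most, and PECAM1, without a read in 13 libraries, 3.045 CPM. Because whole cultures were measured, fewer cells of a kind and less RNA per cell cannot be told apart.

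The oligonucleotides were defined by 3 mature miRNAs, whose sequences are shown because the seed, in capitals (bases 2 to 8), fixes which messenger RNAs could pair with them. The sequences and positions are those of RefSeq on GRCh38.p14. MIR200C lies on chromosome 12 (mature arm 6963742 to 6963764, plus strand), MIR222 on the X chromosome (45747073 to 45747094, minus strand), and miR-512-3p is encoded at 2 places on chromosome 19 (from 53666729 and from 53669213, plus strand).
miR-200c-3p: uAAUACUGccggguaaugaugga
miR-222-5p: cUCAGUAGccaguguagauccu
miR-512-3p: aAGUGCUGucauagcugagguc
The 3 seeds differ from one another. Their 7-base complements (for miR-512-3p CAGCACT, for miR-222-5p CTACTGA and for miR-200c-3p CAGTATT) were searched on the transcribed strand of the 3′ untranslated region (UTR) of each gene's Ensembl canonical transcript (GENCODE release 44).

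The complement of the miR-512-3p seed was found in the 3′ UTR of all 4 Argonautes and in none of the other 6 genes. AGO1 held 2 matches, AGO2 1, AGO3 4 and AGO4 2. Matches to miR-200c-3p were present in AGO1 (2), AGO2 (2) and AGO3 (1), and AGO3 held the single match to miR-222-5p. Argonaute 3′ UTRs are long, at 10925 bases in AGO1, 11888 in AGO2, 16755 in AGO3 and 4285 in AGO4, against a median of 1319 among the genes tested at 24 h. A miR-512-3p match occurred in 23% of those genes and in 61.2% of those with a UTR of at least 4285 bases. The same shares were 10.5% and 34.5% for miR-222-5p at 24 h, and 19.3% and 53.8% for miR-200c-3p at 6 h. A match is a run of letters and not a measured binding site.

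The windows below show the letters around the miR-512-3p matches of AGO1 and around the first match of AGO4. The match is in capitals, with 10 bases on either side, on the plus strand of chromosome 1 (GRCh38).
AGO1 match at 35919877 to 35919883: ccaaaaggggCAGCACTggtgcccacc
AGO1 match at 35923311 to 35923317: tgaataaggcCAGCACTcaagatgggc
AGO4 match at 35853752 to 35853758: ctatactttgCAGCACTgtctgatgcg
AGO4, AGO1 and AGO3 follow each other in this order on the plus strand, with 11917 and 185 bases between neighbours.

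By level, the genes fell into an abundant and a scarce set. TNRC6A averaged 142.6 ± 27.7 CPM (SD of the 10 group means), XPO5 127.6 ± 18.2, DICER1 103.8 ± 14.5 and DROSHA 65.35 ± 4.41. AGO2 followed at 34.05 ± 9.8, AGO1 at 27.4 ± 5.9, TARBP2 at 25.26 ± 5.02, DGCR8 at 18.04 ± 4.68, AGO3 at 17.64 ± 2.63 and AGO4 at 6.481 ± 2.13. Among the 25347 genes with a read, these levels ranked from percentile 63.6 for AGO4 to 95.7 for TNRC6A. Several neighbours in the order did not differ beyond their spread. TNRC6A was above XPO5 in 6 of 10 group means and 18 of 30 libraries, AGO1 above TARBP2 in 6 groups and 18 libraries, and DGCR8 above AGO3 in 4 groups and 15 libraries. DICER1 was above DROSHA, and DROSHA above AGO2, in all 10 groups and 29 of 30 libraries. AGO3 was above AGO4 in all 30 libraries.

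**Figure D1:**
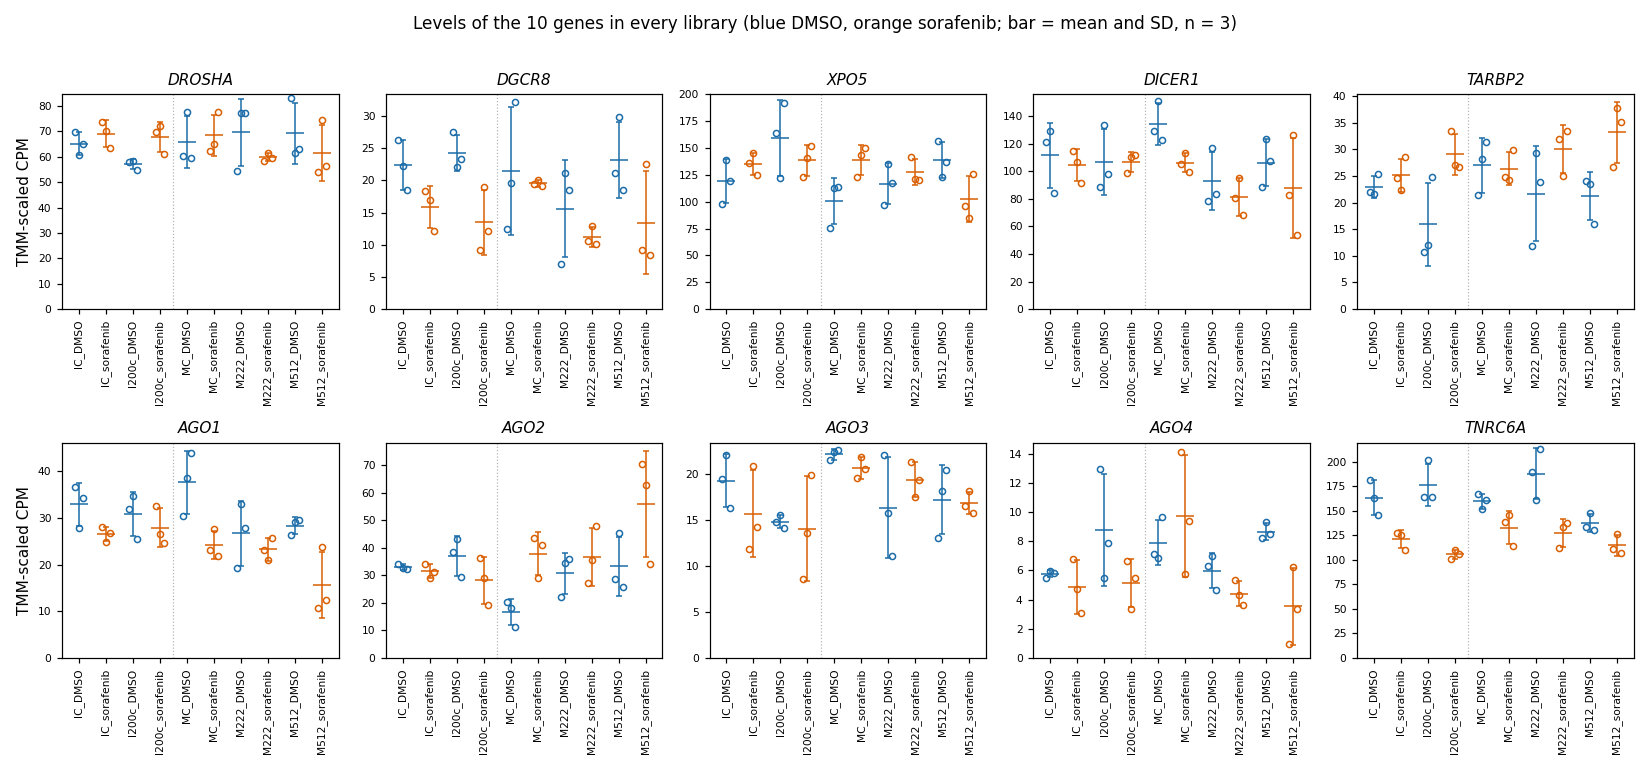
TMM-scaled CPM (vertical axes, from 0) of the 10 genes in the 10 groups, with 1 circle per library and a bar for the mean and SD of 3 replicates; blue is DMSO, orange is sorafenib, and the dotted line parts the 6 h from the 24 h groups. TNRC6A is below its DMSO libraries after sorafenib in each of the 5 transfections, and AGO2 is lowest in MC_DMSO, at 16.53 CPM.

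The 10 genes were compared after sorafenib and after each oligonucleotide by edgeR's quasi-likelihood F test, in which a gene is called when its Benjamini-Hochberg adjusted p over all genes tested is under 0.05. Where the 3 libraries of a group are said to lie all above or all below those of another, this is a description. The share of all genes with such an order in a single comparison was not counted, and not every such case is listed. Of the 10 genes, 2 were called in any of the 14 comparisons, each in 1. TNRC6A fell with sorafenib in I200c, and AGO2 rose with sorafenib in MC. No member was called for any oligonucleotide against its control or for any interaction of an oligonucleotide with sorafenib. Over all genes tested, sorafenib calls made up 0.0393% in IC, 2.28% in I200c, 2.6% in MC, 4.38% in M222 and 9.96% in M512. The 1 call among 10 members in I200c and the 1 in MC, with 0 in IC, M222 and M512, can be read against these shares. In M512, where all-gene calls were most frequent, no member passed, but 10 genes are too few to tell this from the all-gene share. At an unadjusted p under 0.05 by edgeR, the members numbered 1 in IC, 3 in I200c, 3 in MC, 1 in M222 and 5 in M512, beside 3.78%, 15.3%, 16.9%, 19.1% and 24.2% of all genes. The members' median log2 fold change was -0.18 in IC, -0.18 in I200c, -0.06 in MC, -0.20 in M222 and -0.26 in M512, while the median of all genes lay between -0.04 and 0.01.

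**Figure D2:**
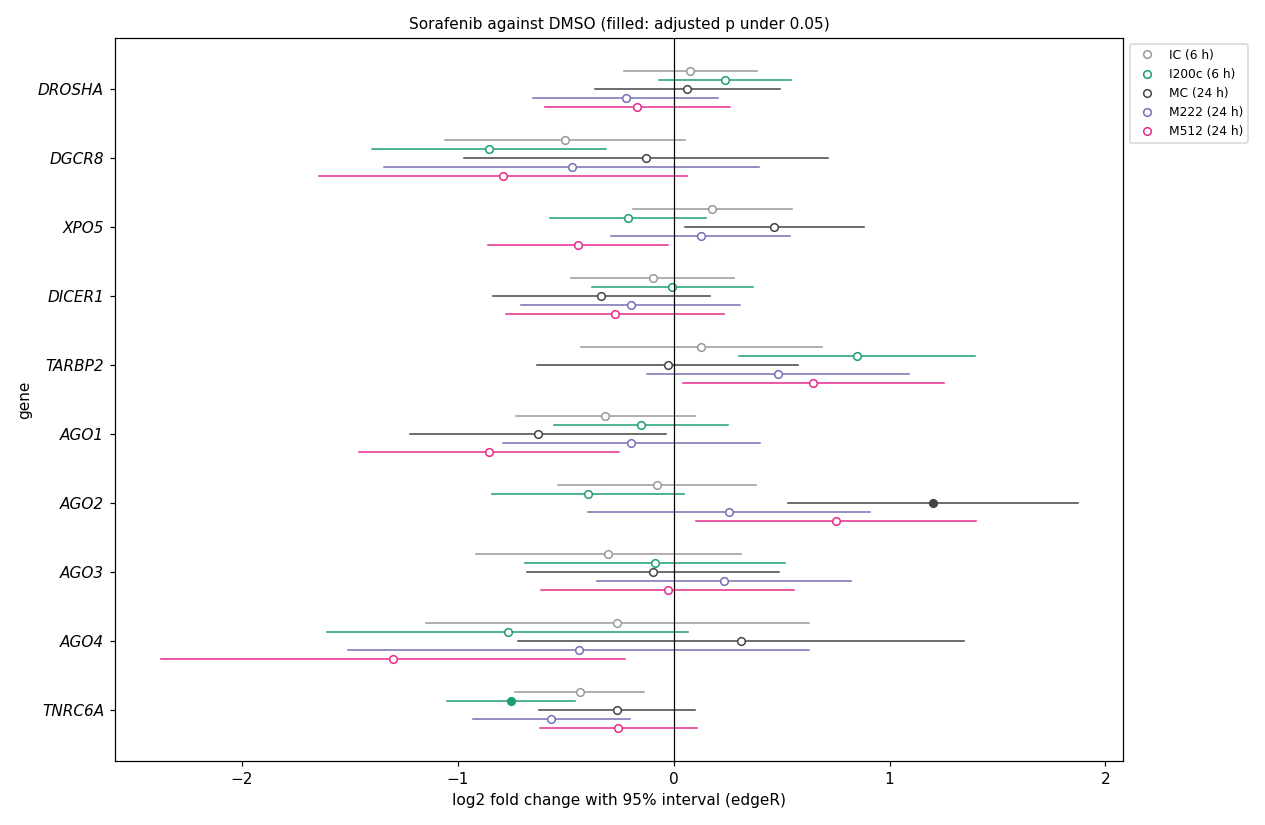
Log2 fold change of sorafenib against DMSO (horizontal axis) with its 95% interval for the 10 genes (vertical axis) in the 5 transfections, marked by colour; filled points passed an adjusted p of 0.05. Only TNRC6A in I200c (-0.75) and AGO2 in MC (1.20) are filled.

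DROSHA, the nuclear RNase III, was the steadiest of the 10. The gene lies on chromosome 5 (31400494 to 31532196, minus strand), and its group means ran from 57.07 ± 1.93 CPM in I200c_DMSO to 69.64 ± 13.2 in M222_DMSO (SD, n = 3). Its log2 change with sorafenib lay between -0.22 and 0.24 and with an oligonucleotide between -0.21 and 0.08, and none of the 14 comparisons had an unadjusted p under 0.05. Its libraries still did not overlap for sorafenib in I200c (above), I200c against IC in DMSO (below) and M222 against MC in sorafenib (below).

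DGCR8, the RNA-binding partner of DROSHA (chromosome 22, 20080221 to 20111877, plus strand), had lower means in sorafenib than in DMSO in all 5 transfections, and none of the 5 differences was called. The share of all genes with lower means in all 5 was not counted. In I200c its levels were 27.46, 22.16 and 23.26 CPM with DMSO and 9.217, 18.97 and 12.22 CPM with sorafenib. These libraries did not overlap, and the log2 difference was -0.86 (SE 0.26, edgeR adjusted p = 0.0952). Leaving out 1 library gave -1.17 without I200c_sorafenib replicate 2 (adjusted p = 0.0446) to -0.64 without I200c_sorafenib replicate 1, and the other 5 cases were not called (up to 0.303). In the other transfections the log2 difference was -0.50 in IC, -0.13 in MC (0.29 without MC_DMSO replicate 3), -0.47 in M222 and -0.79 in M512. Replicates of MC_DMSO spread from 12.47 to 32.13 CPM, a wider range than the difference between the sorafenib and DMSO means in any transfection. TRMT2A and a long noncoding RNA overlap the 3′ end of DGCR8 on the opposite strand. Whether the counting used strand is not given in the sources used here, so its reads are uncertain.

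XPO5, exportin-5 (chromosome 6, 43522334 to 43576038, minus strand), had sorafenib differences of both signs at 24 h. In MC it measured 75.96, 112.8 and 113.6 CPM with DMSO and 123.2, 143.3 and 149.9 CPM with sorafenib. The sorafenib libraries of MC were all above those of DMSO, with a log2 difference of 0.47 (SE 0.20, edgeR adjusted p = 0.229). In M512 the DMSO libraries held 156.9, 123 and 136.6 CPM and the sorafenib libraries 95.91, 84.49 and 126 CPM, which overlapped. The log2 difference there was -0.44 (SE 0.20, edgeR adjusted p = 0.174). The contrast of these responses, the interaction of M512 with sorafenib, was -0.91 on the log2 scale (SE 0.29, 95% interval -1.50 to -0.32, unadjusted p = 0.00384, edgeR adjusted p = 0.766). Other XPO5 differences with an unadjusted p under 0.05 by edgeR were 0.44 for I200c against IC in DMSO (adjusted p = 0.899), 0.45 for M512 against MC in DMSO (0.42) and -0.46 for M512 against MC in sorafenib (0.388). MC_DMSO had the lowest XPO5 mean of all groups, and the comparisons that use it are not independent. POLR1C overlaps the 3′ end of XPO5 on the opposite strand, with the same uncertainty as for DGCR8.

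DICER1, the cytoplasmic RNase III (chromosome 14, 95086228 to 95158010, minus strand), was highest in MC_DMSO, at 134.3 ± 15 CPM, and lowest in M222_sorafenib, at 81.27 ± 13.6 CPM (SD, n = 3). MC_DMSO held 129.3, 151.1 and 122.4 CPM and M222_DMSO 78.67, 116.9 and 83.44 CPM. All 3 mimic libraries were below the 3 control libraries, and the log2 difference of -0.54 (SE 0.25) did not pass, with an edgeR adjusted p of 0.885. With sorafenib its log2 differences ran from -0.33 in MC (SE 0.24, edgeR adjusted p = 0.521) to -0.01 in I200c, none called. MC_sorafenib held 105.3, 113.2 and 99.69 CPM, all below the MC_DMSO libraries. In sorafenib the M222 libraries were also all below those of MC, with a log2 difference of -0.40 (edgeR adjusted p = 0.905).

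TARBP2, the partner of DICER1 (chromosome 12, 53500921 to 53506431, plus strand), measured 10.75, 12.13 and 24.81 CPM in I200c_DMSO and 33.5, 26.97 and 26.7 CPM in I200c_sorafenib. The sorafenib libraries were all above the DMSO libraries, and the log2 difference was 0.85 (SE 0.26, edgeR adjusted p = 0.102). One DMSO library, replicate 3, stood close to the sorafenib values. Without it the log2 difference was 1.34 (adjusted p = 0.00414), without DMSO replicate 1 it was 0.64, and 5 of the 6 cases with 1 library left out were not called (up to 0.273). In M512 the values were 24.14, 23.45 and 16.01 CPM with DMSO and 26.77, 37.66 and 35.11 CPM with sorafenib, again without overlap, with a log2 difference of 0.65 (SE 0.29, edgeR adjusted p = 0.173). The difference in M222 was 0.48, and those in IC and MC were 0.13 and -0.03.

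AGO2, the Argonaute with slicing activity (chromosome 8, 140520156 to 140635633, minus strand), carried the only called rise. In MC_DMSO it measured 20.36, 17.94 and 11.29 CPM and in MC_sorafenib 43.59, 28.86 and 40.96 CPM. The lowest sorafenib library was above the highest DMSO library. The means of 16.53 ± 4.7 and 37.8 ± 7.86 CPM (SD, n = 3) gave a log2 fold change of 1.20 (SE 0.33, 95% interval 0.53 to 1.87, edgeR adjusted p = 0.0454). MC_DMSO stood out for its low AGO2, since the other 4 DMSO groups had means of 30.7 to 36.99 CPM. The call was close to the threshold. It was lost on leaving out any MC library but MC_sorafenib replicate 2, with log2 values from 0.98 without MC_DMSO replicate 3 (edgeR adjusted p = 0.254) to 1.41 without MC_DMSO replicate 1 (0.0718).

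In the remaining transfections AGO2 did not pass. M512_DMSO held 28.62, 45.52 and 25.78 CPM and M512_sorafenib 70.49, 62.83 and 34.11 CPM. These overlapped, and the log2 difference was 0.75 (SE 0.32, edgeR adjusted p = 0.136). It was 1.01 without M512_sorafenib replicate 3 (0.0405) and 0.56 without M512_sorafenib replicate 1, and 5 of 6 such cases were not called (up to 0.38). The log2 difference was 0.26 in M222, -0.08 in IC and -0.40 in I200c. Against the low MC_DMSO libraries, AGO2 was 0.88 higher on the log2 scale in M222_DMSO (SE 0.33, adjusted p = 0.682) and 1.00 higher in M512_DMSO (SE 0.32, adjusted p = 0.198), neither called by edgeR. Both comparisons and the called rise share the 3 MC_DMSO libraries and are not independent. MC_DMSO also had the lowest group mean of XPO5 and the highest of DICER1, AGO1 and AGO3. The differences of those genes from MC_DMSO share the same 3 libraries and are likewise not independent. In sorafenib, the mimics differed from MC by -0.06 in M222 and 0.55 in M512. The interaction of M222 with sorafenib was -0.95 (SE 0.45, unadjusted p = 0.0473, edgeR adjusted p = 1).

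AGO1 (chromosome 1, 35869808 to 35930532, plus strand), a further Argonaute that binds miRNAs, had lower means in sorafenib than in DMSO in all 5 transfections, without a call and, in M222, not without M222_DMSO replicate 2 (log2 difference 0.02). As for DGCR8, the share of all genes with this order was not counted. MC_DMSO held 30.41, 38.59 and 43.85 CPM and MC_sorafenib 23.19, 27.66 and 21.88 CPM, with a log2 difference of -0.63 (SE 0.29, edgeR adjusted p = 0.261). M512_DMSO held 26.26, 29.08 and 29.61 CPM and M512_sorafenib 10.79, 23.81 and 12.45 CPM, with a log2 difference of -0.86 (SE 0.29, edgeR adjusted p = 0.0632). In both transfections the sorafenib libraries were all below the DMSO libraries. With 1 library left out, the difference in M512 ran from -1.28 without M512_sorafenib replicate 2 (adjusted p = 0.00783) to -0.63 without M512_sorafenib replicate 1, and 5 of 6 cases were not called (up to 0.258). In sorafenib, M512 differed from MC by -0.65 (edgeR adjusted p = 0.403). A long noncoding RNA lies across the 3′ end of AGO1 on the opposite strand, so its reads carry the same doubt as those of DGCR8.

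AGO3 (chromosome 1, 35930718 to 36072500, plus strand), which holds the most seed matches of the 10 genes, had no comparison with an unadjusted p under 0.05. Group means ran from 14.04 ± 5.71 CPM in I200c_sorafenib to 22.15 ± 0.569 in MC_DMSO (SD, n = 3). Its log2 difference from MC was -0.44 in M222_DMSO and -0.38 in M512_DMSO, and none was called. All 3 AGO3 libraries were below those of the control in I200c_DMSO, M512_DMSO and M512_sorafenib.

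AGO4 (chromosome 1, 35808016 to 35857890, plus strand) was the scarcest member, and its 5 reads in M512_sorafenib replicate 1 were the fewest of any member in any library. MC_sorafenib held 14.11, 5.771 and 9.397 CPM, M222_sorafenib 5.326, 4.314 and 3.591 CPM, and M512_sorafenib 0.963, 6.244 and 3.361 CPM. M512_DMSO stood at 8.214, 9.287 and 8.5 CPM, above all 3 of its sorafenib libraries. The log2 difference of sorafenib in M512 was -1.30 (SE 0.52, edgeR adjusted p = 0.116). In sorafenib, M222 differed from MC by -1.16 (SE 0.52, adjusted p = 0.773) and M512 by -1.50 (SE 0.52, adjusted p = 0.239), and the interaction of M512 with sorafenib was -1.61 (SE 0.72, adjusted p = 0.965), all by edgeR. All of these share the MC_sorafenib libraries and are not independent. The M222 difference was -0.77 without MC_sorafenib replicate 1. Without M512_sorafenib replicate 1, the M512 difference was -1.05 and the interaction -1.17. With 1 library left out, the sorafenib difference in M512 was -1.96 without M512_sorafenib replicate 2 (edgeR adjusted p = 0.0358). It was -0.84 without M512_sorafenib replicate 1, and 5 of 6 such cases were not called (up to 0.367). At these read numbers the 95% interval of the sorafenib difference in M512 spanned -2.38 to -0.23.

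Summed over AGO1 to AGO4, the Argonaute level ranged from 75.3 ± 7.85 CPM in I200c_sorafenib to 92.47 ± 8.14 in MC_sorafenib (SD, n = 3), a narrower range than that of AGO2 alone. AGO2 made up 19.8% of the sum in MC_DMSO, with 12.9% to 25.6% in single libraries, and 36.3% to 40.3% in the other 4 DMSO groups. AGO1 was the largest part in MC_DMSO, at 44.5%. In M512_sorafenib AGO2 made up 59.9%, with 71.3%, 56.6% and 51.9% in the 3 libraries, and AGO1 17.1%. These shares restate the gene levels above and were not tested.

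**Figure D3:**
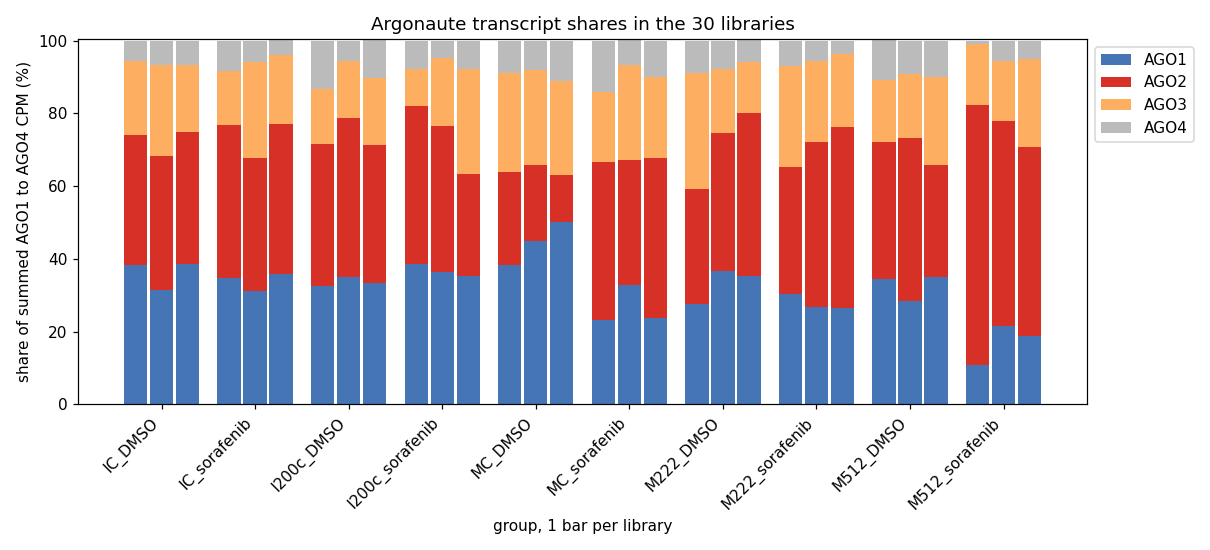
Share in percent (vertical axis) of AGO1, AGO2, AGO3 and AGO4 in their summed TMM-scaled CPM, with 1 stacked bar per library in 10 groups of 3 (horizontal axis). The AGO2 part is smallest in MC_DMSO (mean 19.8%) and largest in M512_sorafenib (mean 59.9%).

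TNRC6A, a GW182 scaffold protein (chromosome 16, 24610209 to 24827632, plus strand), carried the only called fall. In I200c it measured 164.3, 201.2 and 164.3 CPM with DMSO and 100.4, 109.9 and 105.7 CPM with sorafenib. The groups lay far apart, with means of 176.6 ± 21.3 and 105.4 ± 4.79 CPM (SD, n = 3). The log2 fold change was -0.75 (SE 0.14, 95% interval -1.05 to -0.46, edgeR adjusted p = 0.00614), which is 0.593 of the DMSO level. Leaving out any 1 of the 6 libraries kept the call, with log2 values from -0.80 to -0.64 and adjusted p from 0.0108 to 0.0399.

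In the other transfections the difference had the same sign without passing. IC held 181.4, 162.7 and 145.9 CPM with DMSO and 127.6, 125.6 and 110.3 CPM with sorafenib, a log2 difference of -0.44 (SE 0.14, unadjusted p = 0.00661, edgeR adjusted p = 0.725). M222 held 189.3, 160.9 and 213 CPM with DMSO and 111.5, 133.7 and 137.3 CPM with sorafenib, a log2 difference of -0.57 (SE 0.18, edgeR adjusted p = 0.0655) that DESeq2 called (adjusted p = 0.0122). In both, each sorafenib library was below each DMSO library. MC held 166.8, 151.4 and 160.8 CPM with DMSO and 138.4, 145.9 and 113.8 CPM with sorafenib, a difference of -0.26 (edgeR adjusted p = 0.478). M512 held 133.7, 147.5 and 130.5 CPM with DMSO and 110.9, 126.6 and 106.8 CPM with sorafenib, a difference of -0.26 (edgeR adjusted p = 0.404). All 15 sorafenib libraries were therefore below the DMSO libraries of their own transfection. Of the 12538 genes tested at both durations, 33 (0.263%) had this order in all 5 transfections, TNRC6A being the 1 member among them.

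That the TNRC6A difference varied between transfections was not shown. The interaction with sorafenib was -0.32 for I200c (95% interval -0.74 to 0.10), -0.30 for M222 and 0.01 for M512, none called by edgeR. TNRC6A was not called for any oligonucleotide, with log2 differences between -0.23 and 0.23 from its control. The 3′ UTR of TNRC6A, 2411 bases long, held none of the 3 seed complements. Its group means moved most like those of TRIM27 (Pearson r = 0.969), MLLT1 (0.955) and DSTYK (0.918), over 10 group means and among 8178 genes averaging at least 10 CPM. This likeness is a description over groups that share 1 cell line and 1 drug.

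Each oligonucleotide was compared with its control in DMSO and in sorafenib. No member was called by edgeR in any of these 6 comparisons. Calls over all genes were 0.0157% for I200c against IC in DMSO and 0% in sorafenib, 0% for M222 against MC in DMSO and 0% in sorafenib, and 0.634% for M512 against MC in DMSO and 0.355% in sorafenib. For M222 in DMSO, the comparison whose replicates deviated together by number, a replicate block called 3 genes in all and no member. At an unadjusted p under 0.05 by edgeR, members numbered 1 and 0 for I200c, 2 and 1 for M222, and 2 and 3 for M512, in DMSO and in sorafenib. All genes at that level were 5.24% and 2.14%, 5.56% and 6.04%, and 10.5% and 11.1%. For the interactions with sorafenib, called genes made up 0% with I200c, 0% with M222 and 0.00755% with M512, and 0, 1 and 2 members were under an unadjusted p of 0.05 beside 3.24%, 1.96% and 5.04% of all genes.

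**Figure D4:**
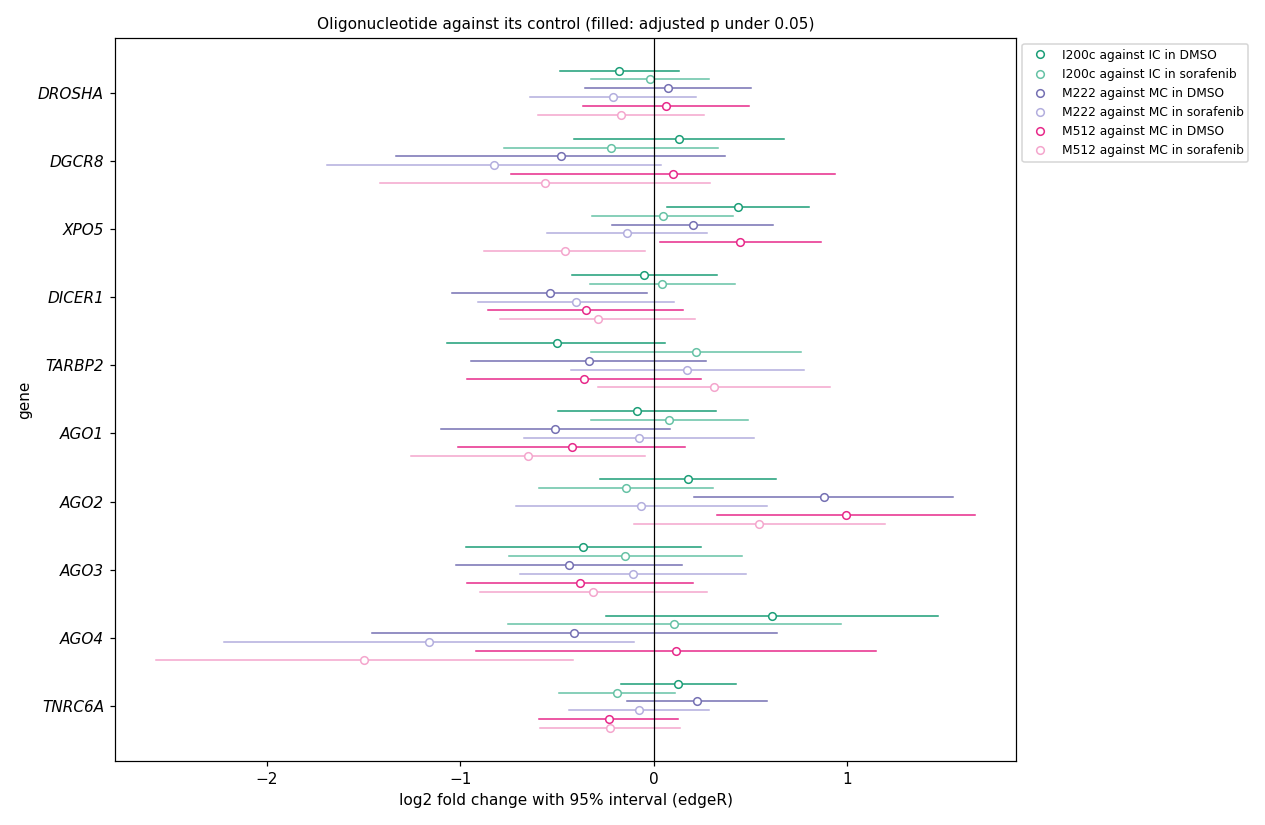
Log2 fold change of each oligonucleotide against its control (horizontal axis) with its 95% interval for the 10 genes (vertical axis), in DMSO (dark) and in sorafenib (pale); no point is filled, since none passed an adjusted p of 0.05. The AGO2 values of M222 and M512 in DMSO, 0.88 and 1.00, share the MC_DMSO libraries.

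With M512, the Argonautes with a miR-512-3p match in the 3′ UTR had differences of both signs. In DMSO the log2 differences from MC were -0.42 for AGO1, 1.00 for AGO2, -0.38 for AGO3 and 0.12 for AGO4, and in sorafenib -0.65, 0.55, -0.31 and -1.50. None was called. Without overlap, AGO3 was below MC in both treatments and AGO1 in DMSO, while AGO2 was above it in DMSO. MC_DMSO held the lowest AGO2 mean of all groups. With I200c, the 3 Argonautes with a miR-200c-3p match differed from IC in DMSO by -0.09 for AGO1, 0.18 for AGO2 and -0.36 for AGO3. In sorafenib these differences were 0.08, -0.14 and -0.15, so that AGO1 and AGO2 had the other sign. AGO3, the 1 member with a miR-222-5p match, differed by -0.44 in M222_DMSO (SE 0.29) and by -0.11 in M222_sorafenib. The precision limits these readings. The 95% interval of AGO3 ran from -0.97 to 0.25 for I200c and from -1.02 to 0.15 for M222, both in DMSO. That of AGO4, the least precise member, reached 0.86 to either side of its value in the I200c comparisons and 1.03 to 1.08 in those of the mimics. AGO4 holds a match to miR-512-3p only.

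Beyond the 10 genes, 33 further genes of the pathway were followed, of which 31 passed the filter on low counts. They cover nuclear cofactors, Dicer partners, GW182 paralogs, deadenylation and decapping, precursor tailing and decay, and Argonaute cofactors. With sorafenib, 0 of 31 were called in IC, and 1 rose and 1 fell in each of I200c, MC, M222 and M512, beside 2.28%, 2.6%, 4.38% and 9.96% of all genes. So few calls cannot tell the list's share from that of all genes in either direction. The list's median log2 fold change was -0.03, 0.08, -0.04, 0.07 and 0.03 in IC, I200c, MC, M222 and M512. With the oligonucleotides, 1 of 31 was called, lower in M512 than in MC in sorafenib (0.355% of all genes), and none in the other 5 comparisons or the interactions.

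XRN1, the exonuclease that degrades decapped messages from the 5′ end, was the gene that rose in all 4. In M512 it measured 20.41, 21.16 and 16.72 CPM with DMSO and 54.12, 67.71 and 60.01 CPM with sorafenib, a log2 change of 1.64 (SE 0.28, edgeR adjusted p = 0.000368). It rose by 1.31 in M222 (adjusted p = 0.00659), 1.16 in MC (0.0204) and 1.15 in I200c (0.0243) by the same test. In IC the log2 difference was 0.56 (adjusted p = 0.999). The rise in M512 was called without any 1 of its libraries. In M222 it was lost without M222_DMSO replicate 3 (adjusted p = 0.0553), in MC without MC_DMSO replicate 1 or 3 or MC_sorafenib replicate 3 (up to 0.177), and in I200c without replicate 1 or 3 of DMSO or replicate 1 or 2 of sorafenib (up to 0.0925). The XRN1 interactions, 0.59 for I200c, 0.15 for M222 and 0.48 for M512, were not called by edgeR.

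DDX17, an RNA helicase that assists DROSHA, fell with sorafenib in the 3 transfections of 24 h. M512 held 317.1, 294.8 and 308.5 CPM with DMSO and 153.1, 163.9 and 177 CPM with sorafenib, a log2 change of -0.90 (SE 0.17, edgeR adjusted p = 0.00155) that was called without any 1 library. The change was -0.76 in MC (adjusted p = 0.0156) and -0.62 in M222 (0.0384). Leaving out 1 library ended the call in MC except for replicate 2 of DMSO or of sorafenib, and in M222 except for replicate 2 of sorafenib, with adjusted p up to 0.133 and 0.224. In M222 it was also lost without the filter on low counts (0.0938). In IC and I200c the differences were -0.12 and -0.20, not called. Its paralog DDX5 fell in I200c by 0.56 on the log2 scale (from 282.2 ± 16.3 to 192.2 ± 11.7 CPM, edgeR adjusted p = 0.0495), a call lost without any 1 of the 6 libraries (0.0702 to 0.148), in 1 fit of 30 libraries (0.161) and with relative log expression factors (0.0501).

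CNOT6, a deadenylase subunit of the CCR4-NOT complex, measured 47.64, 37.41 and 39.79 CPM in MC_sorafenib and 17.72, 19.9 and 20.79 CPM in M512_sorafenib, without overlap. The log2 change was -1.11 (SE 0.24, edgeR adjusted p = 0.0346), and the call was lost without any 1 of the 6 libraries (0.063 to 0.125). In DMSO the same difference was -0.84 (edgeR adjusted p = 0.121). Its 3′ UTR of 4158 bases held 2 complements of the miR-200c-3p seed and none for miR-512-3p. The GW182 paralogs TNRC6B and TNRC6C were not called in any comparison. TNRC6B had a log2 difference of -0.91 with sorafenib in MC (edgeR adjusted p = 0.0536).

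**Figure D5:**
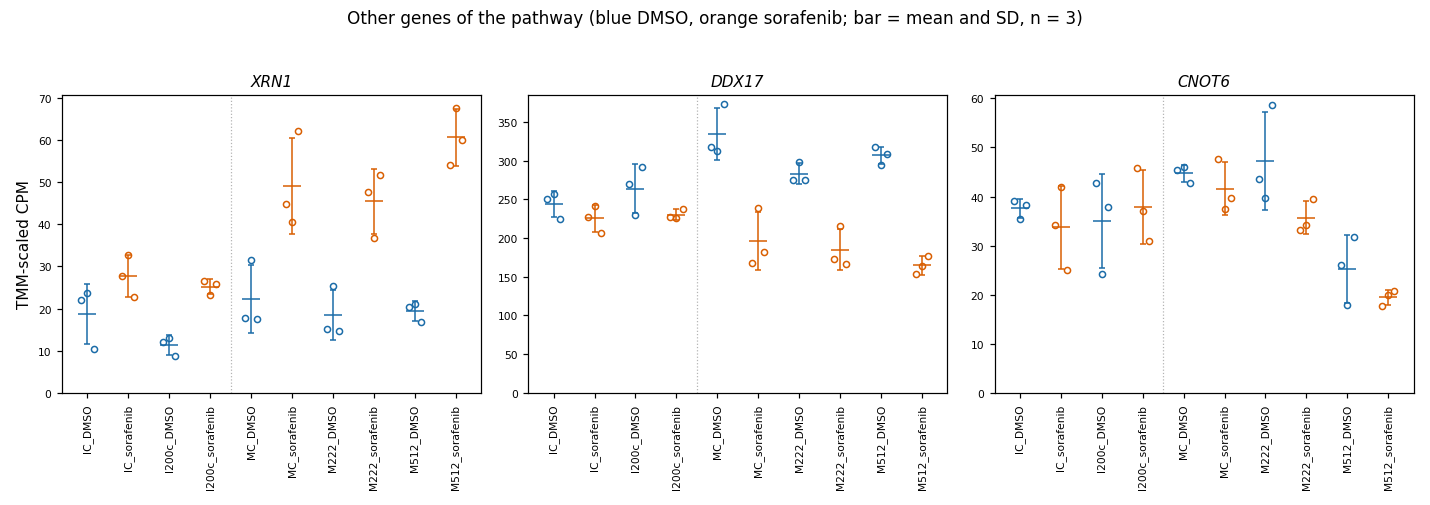
TMM-scaled CPM (vertical axes, from 0) of XRN1, DDX17 and CNOT6 in the 10 groups, with 1 circle per library and a bar for the mean and SD of 3 replicates; blue is DMSO, orange is sorafenib, and the dotted line parts 6 h from 24 h. XRN1 reaches 60.61 CPM and DDX17 164.7 CPM in M512_sorafenib, and CNOT6 is lowest there, at 19.47 CPM.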

How the data were processed

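HepG2 messenger RNA was measured in 30 QuantSeq libraries. The authors demultiplexed with DRAGEN, aligned with STAR to GRCh38, counted reads per gene with HTSeq and deposited raw counts; the annotation release, strand setting and handling of PCR duplicates are not given in the sources used here. The deposited normalised table was not used. Of 60199 lines, 92 named no gene (3 counts in all) and were left out. Symbols matched 56104 identifiers.

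Counts were tested with edgeR 4.0.16 in R 4.3.3 (TMM scaling, filterByExpr, quasi-likelihood F test, two-sided), with 1 coefficient per group, the 12 libraries of 6 h (12738 genes tested) and the 18 of 24 h (13244 genes) fitted apart. Benjamini-Hochberg values were taken over all genes tested. The SE is the size of the log2 fold change over the square root of F. Levels are TMM-scaled CPM with factors from all 30 libraries. Between replicates, the chi-square per degree of freedom was 4.54 to 66.2 over 30 pairs, more than counting error alone gives, so no pair was 1 library read again. Separate libraries made from 1 culture or RNA cannot be told from biological replicates by this value. Named were all 10 members, with full values for comparisons under an unadjusted p of 0.05, and pathway genes of smallest p. Members and lists were chosen with earlier results of these data known. Scripts were tested on simulated data.

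Alternatives were relative log expression factors, total counts, no filter, DESeq2 1.42.0, a replicate block, 30 libraries in 1 fit, and each library left out. By the rule that all same-numbered replicates deviate together (correlation over 0.1), pairing held only for M222 against MC in DMSO (0.185 to 0.191). The surroundings of some seed matches are not reported here.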

Additional observations from a re-analysis of the deposited data

How the results depend on the processing

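Of the 140 log2 differences of members, 6 changed sign in an alternative, none larger than 0.068 in size as reported. They were DICER1 with sorafenib in I200c, DROSHA with sorafenib in MC, AGO3 with sorafenib in M512, and the M512 interactions of DICER1, AGO3 and TNRC6A. With 1 library left out 29 changed sign, none larger than 0.313. TNRC6A in I200c was called in all 6 alternatives. AGO2 in MC was called in 5, and with total counts 0 members were called there (AGO2 1.09, adjusted p = 0.0596). Without the filter 2 members were called in I200c, TARBP2 being added. With total counts, DESeq2 and 1 fit of 30 libraries, 1 member (TNRC6A) was called in M222. With total counts, the replicate block and 1 fit of 30 libraries, 1 (AGO1) was called in M512. Leaving out 1 library gave 1 to 2 called members in I200c, 0 to 1 in MC and 0 to 3 in M512, where 3 were called without M512_sorafenib replicate 2 (DGCR8, AGO1 and AGO4) and 1 without M512_sorafenib replicate 3 (AGO2). Where the numbers pair the samples, M222 against MC in DMSO, the replicate block called 0 members. Over all genes, the highest counts came without the filter or from 1 fit of 30 libraries. They were 2046 for sorafenib in M512 (1319 as reported), 1104 in M222 (580), 822 in MC (344), 519 in I200c (291) and 62 in IC (5), and for M512 against MC 292 in DMSO (84) and 227 in sorafenib (47). The lowest of these were 0 in IC and 91 in I200c, both from 1 fit of 30 libraries. Leaving out 1 library gave down to 760 in M512 (without M512_DMSO replicate 2), 204 in M222 (M222_DMSO replicate 3), 112 in MC (MC_DMSO replicate 3) and 129 in I200c (I200c_sorafenib replicate 2), and for M512 against MC 18 in DMSO (MC_DMSO replicate 3) and 18 in sorafenib (MC_sorafenib replicate 3). M222 against MC reached 47 in DMSO and 46 in sorafenib from 0, I200c against IC 32 from 2 and 7 from 0, and the interactions 19, 2 and 28 from 0, 0 and 1. With total counts, the all-gene median of the sorafenib comparison shifted by -0.188 in M512, -0.107 in MC and -0.106 in M222. Rises then made up 29.9%, 50.1% and 47.9% of the calls there, in place of 53.6%, 69.5% and 64.3%. For M512 against MC the median shift was -0.117 in sorafenib, and the share in DMSO was 27.4% in place of 41.7%. Of the other pathway genes, 5 were called by DESeq2 in I200c and in MC and 6 with total counts in M512, against 2 as reported. The shallowest values, those of AGO4, rest on few reads.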
